A study of Homo sapiens with 12 samples.

Results

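786-O is a human clear cell renal cell carcinoma (ccRCC) line that lacks working VHL, and from it a sunitinib-resistant line was selected. Sunitinib inhibits receptor tyrosine kinases, among them the VEGF and PDGF receptors, KIT and FLT3. The comparison takes the 3 libraries labelled 786-O sunitinib-resistant and the 3 labelled 786-O parental, 6 of the 12 libraries in the series. Parental cells had been grown in rising sunitinib until a culture became confluent at 4 µM, over 4 months or more than 20 passages. The study gives a single resistant line from 786-O, and no sequenced sample has a treatment label other than none. Whether the drug was in the medium at harvest is not stated, nor whether the replicates are separate cultures, so p-values measure the spread between these libraries, which may be technical. All resistant libraries carry one batch label and all parental libraries another, so batch and resistance cannot be told apart.

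Raw counts summed to between 40845091 and 47972092 per library in parental cells and between 42643735 and 46888482 in resistant cells, and 25019 to 25824 and 28342 to 28861 genes had at least 1 count. Values below are CPM (counts scaled to a common library size) after TMM normalisation, given in the order of replicates 1, 2 and 3. Replicate 2 of the resistant cells stood apart. Across 9919 genes averaging 10 CPM or more, the SD of its log2 difference from the other resistant libraries was 0.289 and 0.295, against 0.116 between replicates 1 and 3 and 0.0713 to 0.0895 between parental libraries. The main findings are therefore also given without it. Of the 249 genes the rule names, 87 share exon bases with a gene on the opposite strand, and for 33 one such gene covers 10% or more of them. The stated strand setting of the counting is not the usual one for the library kit, so reads of such pairs may be mixed and their values are uncertain. VIM, for example, had a mean of 240833 counts and VIM-AS1, which overlaps it, 69651. The 6 libraries of A498 and A498-Su enter neither group mean compared. They enter the fit through the expression filter, the normalisation and the shared estimate of spread. Across the 19929 genes tested, the libraries labelled A498-Su had a median correlation of 0.984 with resistant cells, 0.955 with parental cells and 0.882 with A498. Between resistant and parental cells it was 0.958. As a description of log2 CPM, the libraries labelled A498-Su lie closest to resistant 786-O cells, and closer to parental 786-O than to the line on their label.

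Of the 19929 genes tested, 13643 (68.5%) were called changed, with 6970 higher in resistant cells (35.0%) and 6673 lower (33.5%). Called changes beyond 2-fold were mostly rises, 3235 (16.2%) against 1147 falls (5.76%). Without replicate 2, 20228 genes were tested, 73.6% were called, 7611 higher (37.6%) and 7269 lower (35.9%), with 3437 (17.0%) and 1301 (6.43%) beyond 2-fold. Of the 13643 calls, 13219 (96.9%) were made in the same direction without it, 424 were lost and 0 went in the opposite direction by edgeR's test. Of 4382 changes beyond 2-fold, 4104 (93.7%) stayed beyond 2-fold. A further 1521 genes were called only without replicate 2. With the dependence of each library on GC content and gene length taken out, 67.9% were called, 34.1% higher and 33.8% lower, with 15.1% beyond 2-fold higher and 5.32% beyond 2-fold lower. Scaling by library size alone moved the median of all genes by 0.14 on the log2 scale and the share of calls that were higher from 51.1% to 62.5%.

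The direction depended on the level of the gene. Among genes averaging 10 CPM or more, 28.1% were higher and 48.5% lower, and only 4.98% and 3.47% were called beyond 2-fold. Among genes with a mean under 1 CPM, 41.0% were higher and 12.6% lower, with 35.2% beyond 2-fold higher and 9.44% beyond 2-fold lower. Long noncoding RNAs followed the weakly expressed genes, with 885 of 4151 beyond 2-fold higher and 300 beyond 2-fold lower, while 2029 and 674 of 13999 protein-coding genes were. The plot of all genes tested shows this asymmetry together with 3 gene lists.

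**Figure D1:**
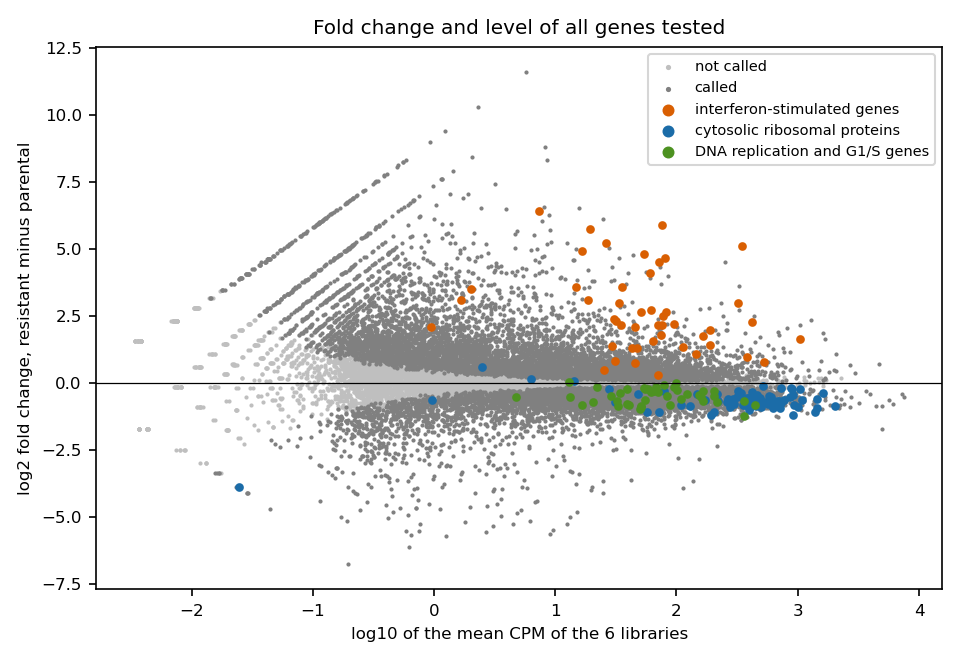
Log2 fold change of resistant over parental cells (y axis) against the log10 of the mean CPM of the 6 libraries (x axis) for the 19854 genes tested that had a count in them, in grey, with 3 gene lists in colour. The 47 interferon-stimulated genes (orange) lie above 0, and the cytosolic ribosomal proteins (blue) and DNA replication genes (green) lie mostly below it. The diagonal streaks on the left are genes with 0 or a few counts in parental cells.

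Interferon-stimulated genes rose together. Interferons bind cell-surface receptors and, through the JAK kinases TYK2 and JAK1, activate STAT factors that, with IRF9, bind the interferon response element in promoters of antiviral genes. All 47 genes of this list were higher in resistant cells, 41 of them beyond 2-fold, where 35.0% of all genes were higher. Of the 43 averaging 10 CPM or more, 43 were higher, against 28.1% of genes at that level. The median log2 fold change was 2.30, or 2.29 without replicate 2, and the single genes ranged from 0.30 to 6.42. The groups did not overlap for any of the 47, and did not for 68.9% of all genes. Summed over the list, the level was 2337, 2282 and 2321 CPM in parental cells and 7768, 9885 and 8019 CPM in resistant cells. Replicate 2 was the highest of the resistant libraries for 35 of the 47 genes.

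The promoters below are the 4 interferon-stimulated genes with the largest rise whose promoter in the RefSeq table (GRCh38.p14) holds the core of the interferon response element within the 160 bases before the start. The sequences run 5′ to 3′ on the strand of the gene and end at the base before the most upstream start in that table. For IFITM1 the gene span given below begins farther upstream, at 310041. Capitals mark matches to the core, 2 copies of GAAA with 2 bases of any kind between them, on either strand. The IFITM1 stretch is chr11:313880-314039 (+), that of IFI6 chr1:27672193-27672352 (−), that of EPSTI1 chr13:42992242-42992401 (−) and that of IFI27 chr14:94110576-94110735 (+).
IFITM1: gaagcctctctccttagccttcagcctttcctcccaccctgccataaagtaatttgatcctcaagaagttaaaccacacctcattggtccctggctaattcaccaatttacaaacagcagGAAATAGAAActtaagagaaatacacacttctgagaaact
IFI6: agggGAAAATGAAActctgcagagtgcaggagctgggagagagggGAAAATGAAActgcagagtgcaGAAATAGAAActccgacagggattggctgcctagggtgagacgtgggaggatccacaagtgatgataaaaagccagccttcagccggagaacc
EPSTI1: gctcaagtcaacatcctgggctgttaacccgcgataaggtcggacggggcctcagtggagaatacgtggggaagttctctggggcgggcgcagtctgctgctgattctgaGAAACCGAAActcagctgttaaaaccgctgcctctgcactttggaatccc
IFI27: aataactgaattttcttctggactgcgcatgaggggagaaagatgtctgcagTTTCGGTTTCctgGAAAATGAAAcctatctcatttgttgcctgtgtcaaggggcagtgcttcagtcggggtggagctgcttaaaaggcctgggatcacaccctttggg

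The core was searched on both strands from 250 bases before to 50 after each listed start, and matches may overlap one another. Of the 47 genes, 38 had an entry, and 26 of these held the core (68.4%), as did 1195 of 27305 genes in the whole table (4.38%). The 26 genes with the core had a median log2 fold change of 2.20 (range 0.76 to 6.42) and the 12 without it 2.57 (range 0.30 to 5.22), so the ranges overlapped. MX2, OAS2, IRF7, OASL, USP18, TRIM22, IFIT2 and IFITM2 were among those not in the table. A match is a description of the letters and not evidence of binding.

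The rises began at different levels, with IFITM1 near absent in parental cells and LGALS3BP already abundant. IFITM1, a membrane protein that restricts virus entry (chromosome 11, 310041 to 315272), was at 0.132, 0.129 and 0.222 CPM in parental cells and at 10.8, 21.2 and 11.3 CPM in resistant cells. Its log2 fold change was 6.42 (standard error, SE, 0.39, adjusted p = 1.8e-09), or 6.04 without replicate 2. OAS2, which makes the activator of RNase L (chromosome 12, 112978395 to 113011723), went from 2.84, 2.33 and 2.31 CPM to 135, 175 and 142 CPM (log2 fold change 5.92, SE 0.12), or 5.79 without replicate 2. CMPK2, a mitochondrial nucleotide kinase induced by interferon, went from 1.55, 1.22 and 1.38 CPM to 49.6, 51.8 and 53.2 CPM, with a log2 fold change of 5.22 and 5.21 without replicate 2. Its exons overlap those of RSAD2 on the opposite strand. LGALS3BP, a secreted glycoprotein, rose from 504, 491 and 497.6 CPM to 1434, 1759.7 and 1544 CPM. In each of these genes all resistant libraries were above all parental libraries, with replicate 2 highest or in the middle.

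The signalling components of the pathway were read as well. STAT2 went from 33, 32.7 and 32.8 CPM to 129.7, 89.1 and 128 CPM (log2 fold change 1.82, 1.97 without replicate 2), and IRF9 had a log2 fold change of 2.11 with no library above 2.02 CPM. For both factors replicate 2 was the lowest of the resistant libraries, unlike for most of the genes they regulate. These factors and the ligands, receptors and sensors that follow were chosen after their values had been seen. The ligand gene IFNB1 had 0, 0 and 1 counts in parental cells and 10, 23 and 11 counts in resistant cells. It was called higher by edgeR's test (log2 fold change 4.78, SE 0.90, adjusted p = 0.00025), or 4.24 without replicate 2. The size of this change rests on 1 count in parental replicate 3. IFNL1 had 0 counts in each parental library and 12, 7 and 10 in resistant cells, too few to pass the filter. IFNE had 1, 2 and 3 counts in parental cells and 7, 9 and 4 in resistant cells, and IFNK had 1 count in parental replicate 1. IFNL2, IFNL3 and IFNG had 0 counts in all 6 libraries, which at a floor of 3 counts does not show absence. The receptor genes IFNAR1 and IFNAR2 were lower, by log2 fold changes of -0.45 and -0.40. The adaptor STING1 was higher, by 1.39 (1.27 without replicate 2), and the DNA sensor CGAS lower, by -0.27. Of the kinases, TYK2 was higher, by 0.66, and JAK1 lower, by -0.48. The kinase TBK1, the factor IRF3 and the adaptor MAVS, which act between the sensors and the interferon genes, were lower, by -0.35, -0.23 and -0.18.

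Antigen presentation by MHC class I rose with them. MHC class I molecules show peptides from inside the cell to cytotoxic T cells, and their genes are known to respond to interferon. Of 17 genes, 16 were higher and 0 lower by edgeR's test, 11 beyond 2-fold, with a median log2 fold change of 1.25 and of 1.15 without replicate 2. All 17 averaged 10 CPM or more, a level at which 28.1% of all genes were higher and 4.98% beyond 2-fold higher. HLA-B went from 438, 404 and 421 CPM to 2127, 2105 and 2291 CPM (log2 fold change 2.37, SE 0.05, adjusted p = 3.1e-14). B2M, the light chain shared by all class I molecules, went from 825, 793 and 807 CPM to 2534, 2807 and 2276 CPM (log2 fold change 1.65, 1.57 without replicate 2). TAP1, a subunit of the peptide transporter, had a log2 fold change of 1.99, and HLA-F, a class I gene with narrow expression, one of 3.99. HLA genes are near-identical copies of each other in parts, so reads may have been split between them, and antisense transcripts overlap HLA-B, HLA-F and TAP1.

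Ligands that restrain T cells moved unevenly. Of 12 checkpoint ligands tested, 7 were higher, 1 was lower and 4 were not called, and without replicate 2 there were 7 higher and 3 lower. Among all genes 35.0% were higher and 33.5% lower. Of the 5 ligands averaging 10 CPM or more 4 were higher and 0 lower by edgeR's test, beside 28.1% and 48.5% of all genes at that level. LGALS9, galectin 9 (chromosome 17, 27629798 to 27649560), was at 0, 0 and 0.133 CPM in parental cells and 13.2, 24.6 and 13.7 CPM in resistant cells, with a log2 fold change of 8.34 and of 7.98 without replicate 2. The size of this change rests on 6 counts in parental replicate 3, the other parental libraries being at 0, and was 7.33 with a prior count of 2 and 12.18 without that library. VTCN1, known as B7-H4, was at the floor of 3 counts in parental cells and was at least 38.6-fold higher in resistant cells (at least 40.1-fold without replicate 2). VSIR, known as VISTA, rose by a log2 fold change of 3.34, and CD276, known as B7-H3, from 185, 179 and 183 CPM to 343, 403 and 378 CPM. CD274 encodes PD-L1, and for it the result turned on replicate 2. It was at 14, 15.6 and 14.7 CPM in parental cells and at 9.6, 17.7 and 8.35 CPM in resistant cells. Replicates 1 and 3 lay below every parental library and replicate 2 above every one. The log2 fold change of -0.32 was not called (adjusted p = 0.15) and was -0.72 and called lower without replicate 2 (adjusted p = 2.8e-10).

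Of 15 complement genes, which act in innate defence, 10 were higher and 3 lower, also without replicate 2, where 35.0% of all genes were higher and 33.5% lower. Of these, 5 averaged under 1 CPM, where 41.0% of genes were higher and 12.6% lower, and of the 6 averaging 10 CPM or more 4 were higher and 2 lower. Their median log2 fold change was 0.91, 0.83 without replicate 2 and 0.50 when genes at the floor in either group were set at their bound. C3, the central component, went from 25.5, 25.2 and 24.8 CPM to 137, 197 and 148 CPM (log2 fold change 2.68, 2.50 without replicate 2). C1S, a protease of the classical pathway, went from 2.52, 2.53 and 3.17 CPM to 13.9, 40.6 and 13.6 CPM, and its log2 fold change fell from 3.03 to 2.31 without replicate 2. Of 24 inflammatory cytokines and genes of the NF-kB pathway 10 were higher and 9 lower, also without replicate 2. CCL20, a chemokine, rose by a log2 fold change of 3.81, CXCL1 and IL11 fell by 1.37 and by 1.26 on the log2 scale, and the adhesion molecule ICAM1 rose from 339, 323 and 321 CPM to 523, 647 and 557 CPM.

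The list medians by library are plotted for a selection of 26 of the 52 lists. Markers of other cell types were at or near 0. Of 18 T cell markers, CD8A alone passed the filter, at no more than 0.547 CPM, and 5 had no count in the 6 libraries. None of 10 myeloid markers exceeded 2.07 CPM in any library and none of 9 endothelial markers exceeded 2.20 CPM. Over the members that passed the filter, the summed level was for T cell markers 0.103 to 0.133 CPM in parental and 0.458 to 0.547 CPM in resistant libraries, for myeloid markers 2.26 to 2.77 CPM in parental and 0.897 to 1.4 CPM in resistant libraries and for endothelial markers 1.13 to 1.55 CPM in parental and 2.84 to 3.6 CPM in resistant libraries. Their part in the results was not tested. Of 13 ccRCC markers, 13 passed the filter, with 6 higher and 5 lower, beside 35.0% and 33.5% of all genes. All of these called markers were among the 11 averaging 10 CPM or more, a level at which 28.1% of all genes were higher and 48.5% lower. PAX8, a renal lineage factor, was at 313, 308 and 315 CPM in parental cells and 228, 254 and 233 CPM in resistant cells. Since the libraries are bulk samples, more cells with a transcript and more RNA per cell cannot be told apart.

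**Figure D2:**
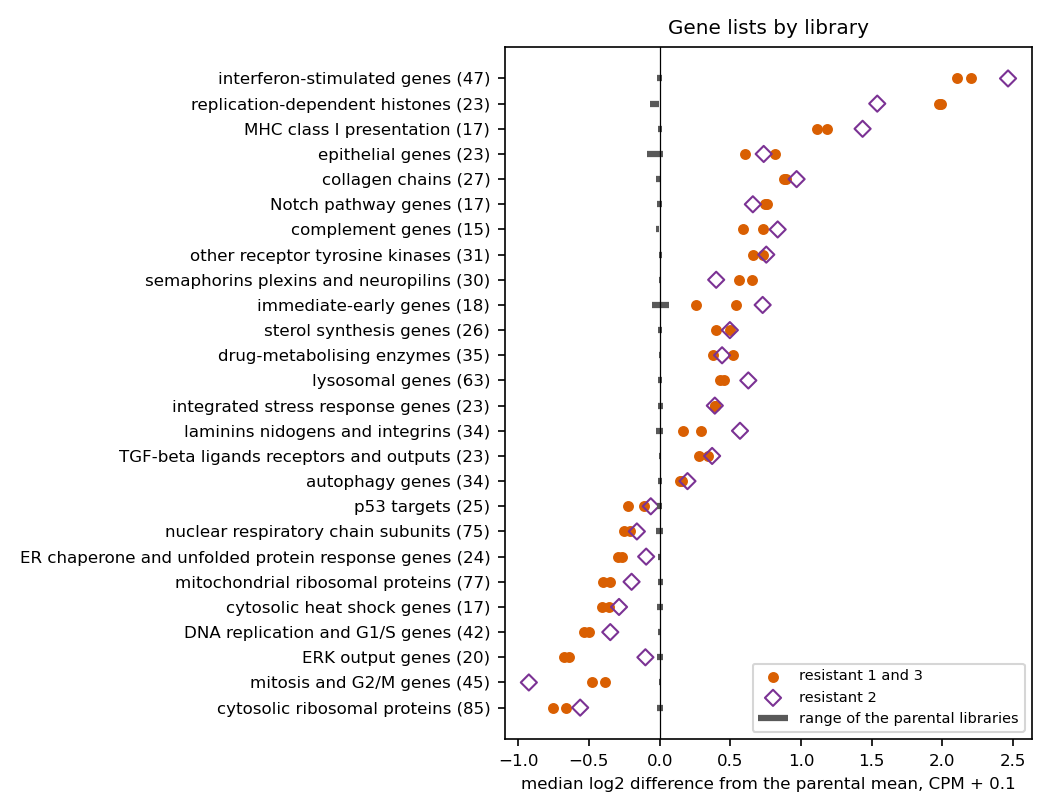
Median over each gene list (number of genes tested in parentheses) of the log2 difference of each resistant library from the parental mean, computed on CPM + 0.1. Filled circles are replicates 1 and 3, open diamonds replicate 2, and grey bars the range of the parental libraries. Replicate 2 lies on the same side of 0 as the others for each list shown, which follows in part from the selection of lists. It stands at -0.93 for mitosis genes, against -0.38 and -0.48, and at -0.10 for ERK output genes, against -0.64 and -0.68. Among lists not shown, it was on the other side for NRF2 targets, at 0.02 against -0.19 and -0.10. The same held for kidney tubule genes, at 0.08 against -0.11 and -0.08, and inflammatory genes, at -0.03 against 0.18 and 0.13.

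The genes with the largest single changes were of mixed function. CYBRD1, an iron-regulated membrane reductase (chromosome 2, 171522247 to 171558129), had 0 counts in each parental library and 642, 424 and 523 counts in resistant cells, and was at least 154-fold higher (at least 165-fold without replicate 2). OSBPL1A, a lipid-binding protein of late endosomes, DHRS2, a dehydrogenase, CERS4, a ceramide synthase, APBA1, an adaptor of the amyloid precursor protein, SPINK1, a trypsin inhibitor, and SCN8A, a sodium channel, had log2 fold changes of 6.58, 6.56, 6.49, 6.30, 6.12 and 6.04. Of these, SPINK1 moved most without replicate 2, to 5.52, since replicate 2 was at 82.6 CPM and the others at 32.1 and 32.2 CPM. In all, 53 genes averaging 1 CPM or more in resistant cells were at the floor of 3 counts in every parental library, 45 of them protein-coding, and 7 showed the reverse. The floor and the bounds computed from it cover counting error only.

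Among the falls, ZNF22, a zinc finger protein (chromosome 10, 45000923 to 45005326), went from 18.2, 18.1 and 17.3 CPM to 0.531, 0.298 and 0.241 CPM (log2 fold change -5.61, SE 0.19, adjusted p = 2.7e-12), or -5.50 without replicate 2. Its exons overlap those of CEP164P1 on the opposite strand, which fell from a mean of 354 to 10.3 counts, so the pair is uncertain. CYP7B1, an oxysterol hydroxylase, PRTFDC1, a relative of the purine salvage enzyme HPRT, LRRC34, ZNF300, RTL3 and COL14A1, a collagen of the fibril surface, had log2 fold changes of -5.55, -5.33, -4.94, -4.85, -4.58 and -4.4. PLEK2, MALL and B3GALNT1 had log2 fold changes of -5.25, -5.14 and -4.99, and of -6.19, -6.05 and -6.14 without replicate 2. For B3GALNT1, a glycosyltransferase, replicate 2 was at 1.74 CPM and replicates 1 and 3 at 0.347 and 0.372 CPM, against 25.2 to 25.7 CPM in parental cells. IGFBP4, a binding protein for insulin-like growth factors, went from 10.7, 10.1 and 9.21 CPM to 0.204, 0.618 and 0.306 CPM. The leading genes were chosen for large changes without overlap, so the distance between the groups in their plot follows from the choice. Replicate 2 was nearer to parental cells for several of the falls.

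**Figure D3:**
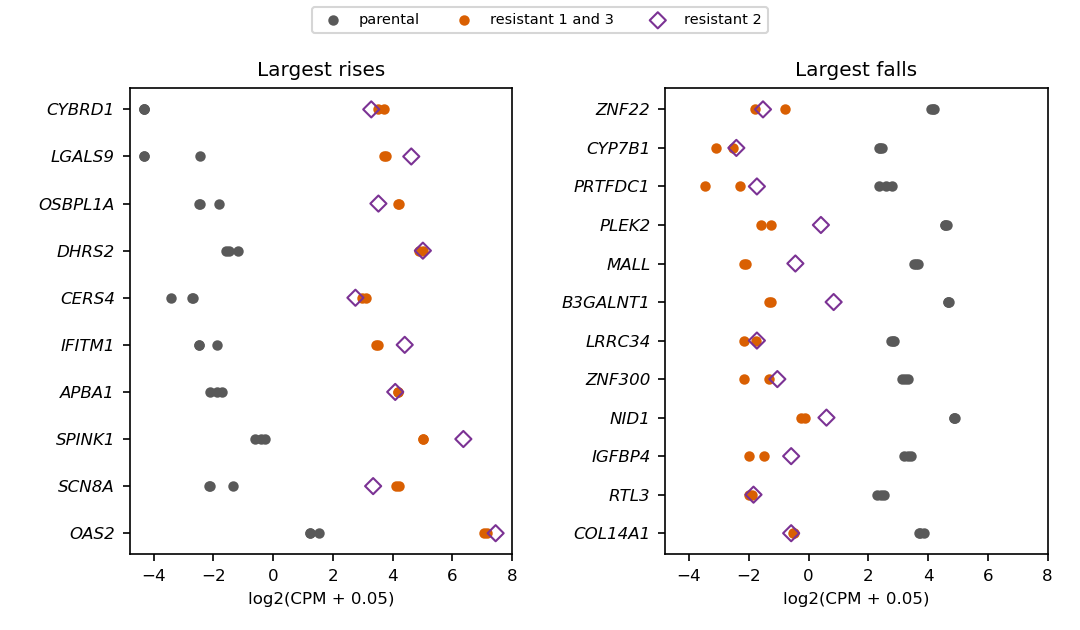
Level of 10 of the 12 genes with the largest rise (left) and the 12 with the largest fall (right) in each library, as log2(CPM + 0.05). Grey circles are parental cells, orange circles resistant replicates 1 and 3, and open diamonds resistant replicate 2. The genes were chosen so that no resistant library overlaps a parental library. Replicate 2 of PLEK2, MALL and B3GALNT1 lies between the other resistant libraries and parental cells.

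The kinases that sunitinib targets were barely expressed. Of 9 on the list, 7 did not pass the filter, FLT1, KDR, FLT4, PDGFRA, KIT, FLT3 and RET, and none of these exceeded 0.229 CPM in any library. CSF1R fell from 2.03, 2.07 and 1.6 CPM to 0.225, 0.504 and 0.197 CPM (log2 fold change -2.62, SE 0.28, adjusted p = 8.2e-07), or -3.14 without replicate 2. PDGFRB was at no more than 0.547 CPM, where the fold change (0.61 on the log2 scale) missed the threshold, and passed it without replicate 2 (1.02). Of 31 other receptor tyrosine kinases 21 were higher and 7 lower, beside 35.0% and 33.5% of all genes, with a median of 0.80 (0.77 without replicate 2, and 0.73 with genes at the floor set at their bound). Of the 17 averaging 10 CPM or more 10 were higher and 6 lower, and 7 of the 31 averaged under 1 CPM, where rises outnumber falls among all genes. FGFR2, a receptor for fibroblast growth factors (chromosome 10, 121478332 to 121598458), went from 12, 11.7 and 11 CPM to 56.4, 20.8 and 62.4 CPM. Its log2 fold change was 2.01, and 2.36 without replicate 2, which lay between the groups. PTK7 and MST1R rose by log2 fold changes of 2.84 and 2.75 at levels of no more than 4.09 CPM. NTRK3, a neurotrophin receptor, was at the floor in resistant cells and at least 37.8-fold lower.

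AXL, a receptor whose ligands are GAS6 and PROS1, was at 563, 563 and 565 CPM in parental cells and 779, 574 and 807 CPM in resistant cells. Replicates 1 and 3 lay well above parental cells and replicate 2 just above them. The log2 fold change was 0.35 (SE 0.09, adjusted p = 0.0024), and 0.49 without replicate 2. Its ligand PROS1 rose more evenly, from 16.4, 16 and 16.3 CPM to 61.8, 64.7 and 59 CPM. Among the other transcripts whose proteins the study followed by immunoblot, STAT3 rose by 0.58 and MAPK3 by 0.36 on the log2 scale, and AKT1 and HSPB1 were not called (adjusted p = 0.44 and 0.86). ACTB, which encodes the actin often used as a loading control, fell by 0.50 on the log2 scale, from 9023, 8729 and 8504 CPM to 6008, 6344 and 6181 CPM. MAPK3 was at 0.06 once the dependence on GC content and length had been taken out.

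Angiogenic ligands had no common direction, with 7 of 16 higher and 6 lower (6 and 7 without replicate 2), beside 35.0% and 33.5% of all genes. Of the 11 averaging 10 CPM or more 5 were higher and 4 lower, beside 28.1% and 48.5% of all genes at that level. VEGFA, the main angiogenic factor of ccRCC, went from 245, 245 and 241 CPM to 219, 191 and 224 CPM (log2 fold change -0.21, -0.14 without replicate 2). PDGFC went from 63.3, 64.3 and 63.1 CPM to 25.5, 28.7 and 24 CPM (-1.29 and -1.36), and PGF rose at levels of no more than 2.86 CPM. ANGPTL4, a hypoxia-inducible regulator of lipoprotein lipase (chromosome 19, 8363289 to 8374370), was at 8.68, 8.33 and 8.21 CPM in parental cells and 13.3, 72.4 and 13.9 CPM in resistant cells. It was called higher with all libraries (log2 fold change 1.98) and without replicate 2 (0.69), but the size rests mostly on replicate 2. HIF targets outside glycolysis were split, with 13 of 29 higher and 10 lower (13 and 13 without replicate 2), beside the same shares of all genes. Of the 23 averaging 10 CPM or more 11 were higher and 9 lower, beside 28.1% and 48.5% at that level. NDRG1 went from 230.3, 224 and 223 CPM to 819, 574 and 873 CPM, and STC2 from 274, 261 and 269.6 CPM to 31, 48.9 and 33.2 CPM.

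Genes that report the output of the ERK kinases were mostly lower. Of 20, 13 were lower and 3 higher, where 33.5% of all genes were lower, with a median log2 fold change of -0.48 and of -0.66 without replicate 2, which was the highest resistant library for 18 of the 20. PHLDA1 went from 163, 157 and 159 CPM to 65.7, 97.7 and 65.6 CPM, a log2 fold change of -1.07 (-1.28 without replicate 2). An antisense transcript overlaps its exons. The exceptions that rose were DUSP4, an ERK phosphatase, EMP1 and CCND1, which encodes cyclin D1 and went from 479.8, 471 and 470.3 CPM to 527, 656 and 559 CPM. Of 18 immediate-early genes 10 were higher and 2 lower (10 and 4 without replicate 2), where 35.0% and 33.5% of all genes were, and of the 10 averaging 10 CPM or more 6 were higher and 2 lower, beside 28.1% and 48.5% at that level. ATF3, a stress-induced factor, went from 11.2, 10.8 and 10.2 CPM to 30.4, 42.5 and 29 CPM, and KLF4 from 18.3, 16.8 and 16.4 CPM to 46.3, 54.7 and 48.2 CPM. Of 26 targets of YAP and TEAD, 13 were higher and 8 lower (14 and 9 without replicate 2), beside 35.0% and 33.5% of all genes. Of the 24 averaging 10 CPM or more 12 were higher and 7 lower, beside 28.1% and 48.5% of all genes at that level. CCN1 and CCN2, the matricellular proteins read most often for this pathway, had log2 fold changes of 0.59 and 1.28 (0.52 and 1.14 without replicate 2).

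Cell cycle genes were lower as a group. Of 42 genes of DNA replication and the G1/S transition, 36 were lower and 0 higher by edgeR's test, where 48.5% of genes of at least 10 CPM were lower. The median log2 fold change was -0.47, and -0.52 without replicate 2, when 40 were lower and 1 higher. RRM2, the regulated subunit of ribonucleotide reductase, went from 506, 498.2 and 499.6 CPM to 195, 262 and 188 CPM (log2 fold change -1.22, SE 0.09, adjusted p = 1.6e-08), or -1.39 without replicate 2. MCM7, part of the replicative helicase, went from 569, 554 and 559.9 CPM to 309, 342 and 318 CPM. Of 45 genes of mitosis and G2/M, 38 were lower and 1 higher, with a median of -0.59, and of -0.47 without replicate 2. Replicate 2 was the lowest resistant library for 43 of the 45 mitosis genes, and the highest for 32 of the 42 replication genes. KIF20A, a mitotic kinesin, went from 139.9, 137 and 139.8 CPM to 68.2, 39.6 and 69.3 CPM, and PLK1, a mitotic kinase, from 302, 302 and 293 CPM to 182, 112 and 188 CPM. MKI67, the proliferation marker Ki-67, was at 487, 575 and 573 CPM in parental cells and 452, 322 and 507 CPM in resistant cells, and the groups overlapped in replicate 3. Its log2 fold change was -0.35 (adjusted p = 0.016), and -0.19 without replicate 2 (adjusted p = 0.0023).

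Kinases and inhibitors that control the cycle changed in both directions. CDK6 went from 336, 369.6 and 381 CPM to 119.8, 117 and 120.3 CPM (log2 fold change -1.61, SE 0.05, adjusted p = 1.8e-12), or -1.6 without replicate 2. CDK4, whose exons overlap TSPAN31 on the opposite strand, fell by 0.61 on the log2 scale, and CDKN1C, an inhibitor of cyclin-dependent kinases, rose from 0.421, 0.31 and 0.133 CPM to 4.98, 2.54 and 5.44 CPM. CDKN1A, which encodes p21, was at 258, 248 and 256 CPM in parental cells and 231, 366 and 247 CPM in resistant cells. It was not called with all libraries (log2 fold change 0.15, adjusted p = 0.29) and was called slightly lower without replicate 2 (-0.09, adjusted p = 0.042). Of 25 targets of p53, 12 were lower and 3 higher (15 and 3 without replicate 2), beside 33.5% and 35.0% of all genes. Of the 20 averaging 10 CPM or more 9 were lower and 3 higher, beside 48.5% and 28.1% of all genes at that level. The list had a median of -0.12 that was 0.03 when scaled by library size alone. MDM2, which degrades p53, fell from 69.4, 73.8 and 73.8 CPM to 28.2, 30.9 and 25.2 CPM, and GDF15, a stress-induced cytokine, rose from 41.7, 36.1 and 36.8 CPM to 138, 311 and 157 CPM. In the BCL2 family, the proapoptotic BCL2L11 rose by a log2 fold change of 1.03 and BAX and BID fell by 0.47 and by 0.54 on the log2 scale.

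Nearly all genes of the cytosolic ribosome fell. Of 85 cytosolic ribosomal protein genes, 81 were lower and 1 higher, and of the 81 averaging 10 CPM or more, 79 were lower, where 48.5% of genes at that level were. The median log2 fold change was -0.67, -0.70 without replicate 2 and -0.65 with the trend with GC content and length removed. The summed level was 54363, 52543 and 53071 CPM in parental cells and 33546, 35611 and 32310 CPM in resistant cells. RPL10 went from 1303, 1264 and 1281 CPM to 539, 613 and 536 CPM, with 35.9% of its exon bases overlapped by DNASE1L1 on the opposite strand, and RPLP0 from 1950.2, 1846 and 1894 CPM to 871, 951 and 856 CPM. Ribosomal protein genes have many processed pseudogenes, which could take some of their reads. Of 77 mitochondrial ribosomal proteins, 51 were lower and 8 higher (median -0.31, -0.38 without replicate 2), and of 75 nuclear-encoded subunits of the respiratory chain, 48 were lower and 8 higher (median -0.20, -0.22 without replicate 2). Of those averaging 10 CPM or more, 49 of 70 and 47 of 69 were lower, again beside 48.5% of all genes at that level. Transcripts of the mitochondrial genome went the other way, with 7 of 13 higher and 1 lower (10 and 1 without replicate 2), where 28.1% of genes of at least 10 CPM were higher. The median log2 differences of the resistant libraries from the parental mean were 0.55, 0.12 and 0.26. Those of the parental libraries ranged from -0.20 to 0.17, so replicate 2 lay within their range. MT-CO1 was at 3550.2, 3998 and 3094 CPM in parental cells and 6541, 5358 and 5484 CPM in resistant cells.

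Of 17 genes on the list of cytosolic heat shock genes, which also holds mitochondrial chaperonin genes, 10 were lower and 4 higher (11 and 4 without replicate 2). All but 1 averaged 10 CPM or more, and 10 of these 16 were lower, where 48.5% of genes at that level were. Of 24 chaperones and unfolded protein response genes of the endoplasmic reticulum 13 were lower and 6 higher (14 and 4 without replicate 2), and of the 22 averaging 10 CPM or more 12 were lower, a share near that of all genes at that level. HSPA8, the constitutive member of the HSP70 family, went from 3074, 2992 and 3022 CPM to 1664, 2049.6 and 1601 CPM (log2 fold change -0.77, -0.89 without replicate 2). HSPD1 and HSPE1, the mitochondrial chaperonin pair encoded head to head, fell by 1.00 and by 1.10 on the log2 scale. HSP90B1 went from 855, 851 and 866 CPM to 561, 589 and 545 CPM. Of 23 genes of the integrated stress response, driven by ATF4, 17 were higher and 3 lower, with a median of 0.43 (0.37 without replicate 2). Of the 21 averaging 10 CPM or more 15 were higher, where 28.1% of genes at that level were. NUPR1, a stress-induced chromatin protein, went from 3.21, 3.28 and 3.57 CPM to 24.2, 39.9 and 25.2 CPM, while STC2, also on this list, fell by 2.83 on the log2 scale.

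Lysosomal genes rose broadly. Sunitinib is a weak base that is known to be trapped in lysosomes. Of 63 lysosomal genes 47 were higher and 7 lower, 19 beyond 2-fold higher, where 35.0% of all genes were higher and 16.2% beyond 2-fold. Of the 59 averaging 10 CPM or more, 45 were higher, against 28.1% of genes at that level. The median log2 fold change was 0.46, and 0.45 without replicate 2, when 47 were higher and 11 lower. GAA, acid alpha-glucosidase, went from 15.2, 15.9 and 15.3 CPM to 68.5, 77.9 and 73.4 CPM (log2 fold change 2.25, SE 0.06, adjusted p = 1.9e-13). NEU1, a sialidase, went from 88.1, 80.6 and 81.7 CPM to 330.4, 339.9 and 327 CPM, and PSAP, the precursor of the saposins, from 1332, 1289 and 1307 CPM to 2725, 2848 and 2895 CPM. All resistant libraries lay above all parental libraries for these genes. Autophagy genes were less uniform, with 18 of 34 higher and 9 lower (17 and 10 without replicate 2), beside 35.0% and 33.5% of all genes. Of the 32 averaging 10 CPM or more 18 were higher and 8 lower, beside 28.1% and 48.5% of all genes at that level.

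Transporters and enzymes that handle drugs and lipids changed in both directions. Of 29 ABC transporters, 17 were higher and 10 lower (16 and 10 without replicate 2), where 35.0% and 33.5% of all genes were, and of the 18 averaging 10 CPM or more 10 were higher and 8 lower. ABCA2 went from 107, 104 and 101 CPM to 455, 297 and 496 CPM (log2 fold change 2.00, 2.19 without replicate 2), and ABCA7, ABCA3 and ABCA5 rose by 2.13, 1.61 and 1.71. ABCC3, an exporter of organic anions, went from 54.8, 57.4 and 55.9 CPM to 169, 145 and 170.0 CPM. Of 35 drug-metabolising enzymes 20 were higher and 8 lower (21 and 9 without replicate 2), beside 35.0% and 33.5% of all genes. Among the 18 averaging 10 CPM or more 10 were higher and 5 lower, beside 28.1% and 48.5% of all genes at that level. CYP4F12, at the floor in parental cells, was at least 32.8-fold higher. Of 26 sterol synthesis genes and their uptake partners, 20 were higher and 2 lower (median 0.49, 0.45 without replicate 2), and of the 24 averaging 10 CPM or more 18 were higher, against 28.1% of genes at that level. HMGCS1, which makes the precursor of mevalonate, went from 126, 129 and 130.2 CPM to 317, 283 and 304 CPM. A gene on the opposite strand overlaps 37.7% of its exon bases and went from a mean of 994 to 1976 counts, so the value of HMGCS1 is uncertain. The sterol element TCACNCCAC was in 1 of the 19 promoters of this list in the table (5.26%) and in 1.39% of all genes. NRF2 targets had no common direction, with 11 of 32 higher and 13 lower (11 and 18 without replicate 2), and the antioxidant element TGACNNNGC was in 8 of the 23 promoters in the table (34.8%) and in 16.1% of all genes. Of the 4 metallothioneins tested, MT2A, MT1E and MT1X were lower and MT1F higher. MT2A went from 788, 724 and 741 CPM to 320.3, 457 and 409 CPM, and both promoters of this family in the table held the metal element core, TGCACNC or TGCGCNC, as did 33.4% of all genes.

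Genes of the extracellular matrix changed in both directions. Of 27 collagen chains 21 were higher and 3 lower (20 and 4 without replicate 2), beside 35.0% and 33.5% of all genes. Of these, 10 averaged under 1 CPM, where 41.0% of genes were higher and 12.6% lower, and of the 11 averaging 10 CPM or more 9 were higher and 1 lower. The list had a median log2 fold change of 1.00, of 0.96 without replicate 2 and of 0.67 with the trend with GC content and length removed. COL12A1 went from 2.03, 2.12 and 3.42 CPM to 70.5, 48 and 75.7 CPM, and the basement membrane chains COL4A4 and COL4A3 rose by log2 fold changes of 5.20 and 3.66. COL6A3, a chain of the beaded microfilaments, went the other way, from 194, 222 and 213 CPM to 8.52, 26 and 8.27 CPM (log2 fold change -3.89, -4.65 without replicate 2). FN1, fibronectin, went from 7048, 8115 and 7742 CPM to 1864, 2978 and 2174 CPM (log2 fold change -1.71, SE 0.12, adjusted p = 1.2e-08), or -1.92 without replicate 2. TNC, tenascin C, went from 169.7, 187 and 181 CPM to 10.7, 55.1 and 11.5 CPM, and its log2 fold change was -2.81, and -4.02 without replicate 2. LAMA1, a laminin chain, rose by 3.38, while NID1, which links laminins to collagen IV, fell by 4.82 on the log2 scale. LOX, which cross-links collagen, fell from 9.97, 10.6 and 9.78 CPM to 0.531, 1.28 and 0.678 CPM.

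Within the TGF-beta list, 14 of 23 genes were higher and 6 lower (14 and 7 without replicate 2), beside 35.0% and 33.5% of all genes. Of the 19 averaging 10 CPM or more 11 were higher and 5 lower, beside 28.1% and 48.5% of all genes at that level. INHBB, an activin subunit, fell from 45.4, 46.9 and 45.9 CPM to 3.57, 3.41 and 4.18 CPM. ID1, a target of BMP signalling, rose from 49.6, 45.8 and 47 CPM to 118, 147 and 116 CPM. Of 17 Notch pathway genes 12 were higher and 2 lower (11 and 2 without replicate 2), beside 35.0% and 33.5% of all genes. Of these, 6 averaged under 1 CPM, where 41.0% of genes were higher and 12.6% lower, and of the 9 averaging 10 CPM or more 7 were higher and 2 lower. The list had a median of 0.94 that was 1.05 without it, 0.80 with genes at the floor set at their bound and 0.45 with the GC and length trend removed. JAG2, a ligand, and NOTCH2, a receptor, rose by 1.70 and 0.64, and MFNG, a glycosyltransferase that modifies Notch, fell by 1.96 on the log2 scale.

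Junction and keratin genes of epithelial cells changed in both directions. Of 23 epithelial genes 14 were higher and 7 lower, beside 35.0% and 33.5% of all genes, and of the 9 averaging 10 CPM or more 5 were higher and 4 lower. Summed over the list, the level was 2367, 2301 and 2310.3 CPM in parental cells and 1606, 2040.3 and 1646 CPM in resistant cells. The list had a median of 1.08, 1.12 without replicate 2 and 0.70 with the GC and length trend removed. CDH1, E-cadherin (at the floor in parental cells), was at 2.43, 1.85 and 2.69 CPM in resistant cells and at least 31.3-fold higher (at least 34.4-fold without replicate 2). JUP, plakoglobin, went from 2.68, 3.13 and 2.48 CPM to 37.3, 40 and 40.3 CPM, and DSP, desmoplakin, from 0.842, 0.828 and 0.71 CPM to 14.4, 10.3 and 16.7 CPM. KRT8, an abundant keratin, was lower, at 1189, 1155 and 1163 CPM in parental cells and 689, 904 and 716 CPM in resistant cells. Mesenchymal genes changed in both directions by count, with 7 of 16 higher and 6 lower (6 and 7 without replicate 2). Their median log2 fold change was -0.21, and -0.30 without replicate 2. Summed over this list, the level fell, from 15648.5, 16414 and 15865 CPM in parental cells to 7710, 9174 and 8233 CPM in resistant cells. VIM, vimentin, went from 7058, 6774 and 6611 CPM to 4345, 4543 and 4497 CPM, while the smooth muscle genes TAGLN and ACTA2 rose by log2 fold changes of 1.98 and 1.24. Other genes overlap the exons of VIM, TAGLN and ACTA2. Of 18 kidney tubule genes 6 were higher and 6 lower, and CDH6, a cadherin of the proximal tubule, went from 113, 111 and 113 CPM to 21.1, 43.1 and 21.9 CPM.

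Replication-dependent histone genes, whose main transcripts carry no poly(A) tail and are largely missed by poly(A) selection, were higher, 21 of 23 tested with 21 beyond 2-fold (22 higher without replicate 2), where 35.0% of all genes were higher and 16.2% beyond 2-fold. Of the 23, 10 averaged under 1 CPM, where 35.2% of genes were beyond 2-fold higher, and 3 averaged 10 CPM or more. H2BC12 went from 8.89, 8.35 and 9.45 CPM to 63.1, 72.8 and 59.1 CPM, a log2 fold change of 2.87 (2.77 without replicate 2). Among genes of axon guidance, 19 of 30 semaphorins, plexins and neuropilins were higher and 6 lower (18 and 7 without replicate 2), beside 35.0% and 33.5% of all genes. Of the 19 averaging 10 CPM or more 12 were higher and 5 lower, beside 28.1% and 48.5% of all genes at that level. PLXNA2, a semaphorin receptor, went from 3.63, 3.41 and 3.73 CPM to 23.9, 23.8 and 26.6 CPM, and NRP1, a coreceptor for semaphorins and VEGF, from 114, 121 and 116 CPM to 35.5, 51.8 and 34.3 CPM. Zinc finger genes had no common direction, with 136 of 458 higher and 113 lower (154 and 136 without replicate 2).

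Replicate 2 differed from its replicates in named genes as well as in lists. Among genes averaging 10 CPM or more in resistant cells, its largest upward deviations were in ANGPTL4, TNC, LINC02154, SCG5 and ISG20. ISG20, an antiviral exonuclease, was at 2.39, 2.07 and 2.31 CPM in parental cells and 15.6, 51.4 and 15.9 CPM in resistant cells. SCG5, a secretory chaperone, was at 31.1, 31.2 and 31.4 CPM in parental cells and 18.2, 56.7 and 15.5 CPM in resistant cells. It was not called with all libraries (adjusted p = 0.89) and had a log2 fold change of -0.89 without replicate 2. The largest downward deviations were in PIF1, FGFR2, ELF3, SEC31B and KCNQ1OT1. ELF3, an epithelial transcription factor, was at 6.42, 7.11 and 6.61 CPM in parental cells and 49, 17.4 and 49.7 CPM in resistant cells. Among called changes beyond 2-fold, replicate 2 lay nearer to the parental mean than replicates 1 and 3 in 2281 genes and farther in 1356. For 191 called genes it lay on the other side of the parental mean. The cause of its difference was not tested.

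**Figure D4:**
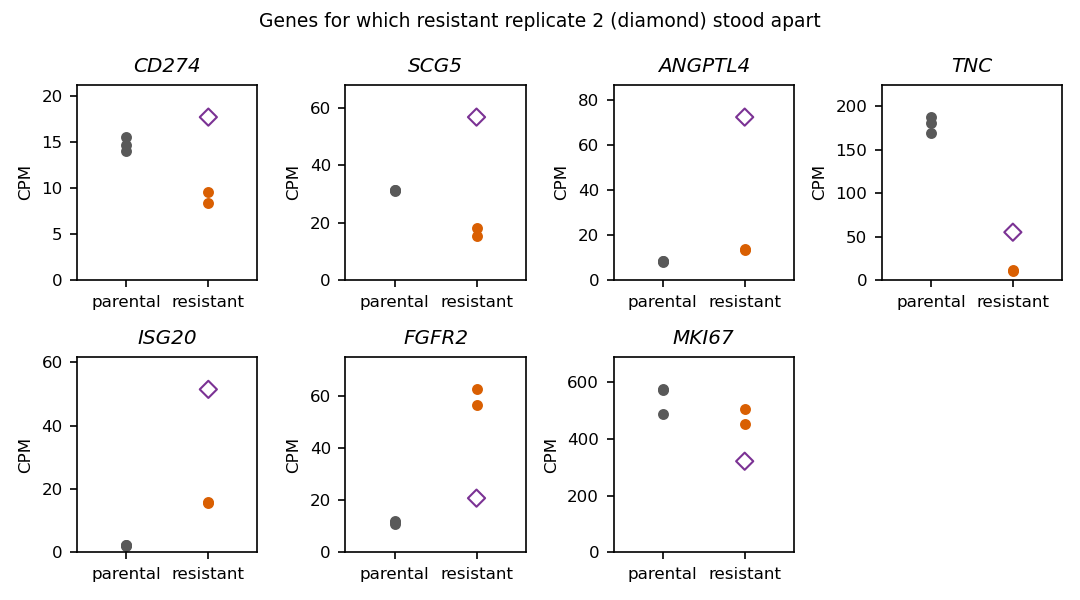
CPM of 7 genes in each parental library (grey) and in resistant replicates 1 and 3 (orange circles) and replicate 2 (open diamonds), with each y axis starting at 0. For CD274 and SCG5 replicate 2 lies above parental cells and the other resistant libraries below it, while for ANGPTL4, TNC, ISG20, FGFR2 and MKI67 all resistant libraries or nearly all lie on one side.

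By position, chromosome 12 stood lowest before the GC and length trend was removed. Protein-coding genes averaging 5 CPM or more were taken in blocks of 30 neighbours. All 18 blocks of chromosome 12 had a negative median log2 fold change, from -0.76 to -0.17, where 241 of 331 blocks did in all (72.8%), and 5 of the 10 lowest blocks were on it. All 18 were also negative without replicate 2 and with the GC and length trend removed. With that trend removed, blocks of chromosome 22 at -0.562 and -0.556 lay below the lowest of chromosome 12, at -0.522. On 6 chromosomes, chromosome 12 included, every block was negative, and the median of all blocks was -0.14. Of 635 genes of chromosome 12 averaging 1 CPM or more, 403 were lower (63.5%) and 109 higher (17.2%), with a median of -0.38, against 42.1% lower, 32.9% higher and a median of -0.06 on the other chromosomes. Chromosomes 9, 15 and 17 had positive medians of 0.16, 0.19 and 0.13, and that of chromosome 19 was 0.12. CDK4, MDM2, PHLDA1, KRT8 and RPLP0 above are on chromosome 12, and SCN8A, OAS2 and STAT2, which rose, are too. DNA copy number was not measured here.

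**Figure D5:**
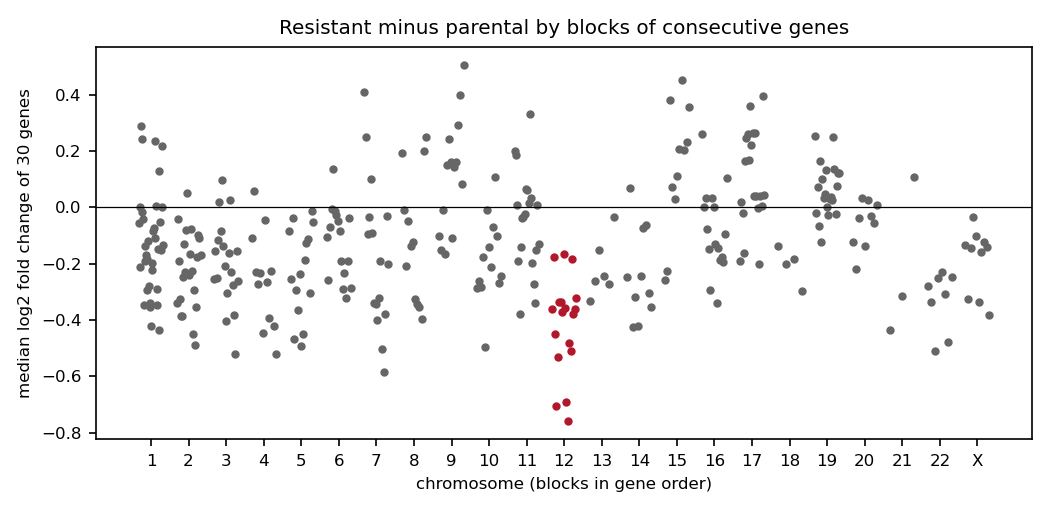
Median log2 fold change of resistant over parental cells in blocks of 30 consecutive protein-coding genes, in gene order along each chromosome, 331 blocks in all. The 18 blocks of chromosome 12 are in red and lie below 0, between -0.76 and -0.17.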

How the data were processed

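Poly(A) RNA of parental and sunitinib-resistant 786-O and A498 cells was sequenced in 3 libraries each. The authors deposited raw counts per gene, made with Trimmomatic 0.36.6, HISAT2 2.1.0 and featureCounts 1.6.3 on GRCh38 with GENCODE 33. The methods name a TruSeq stranded kit with the forward strand setting of featureCounts, where the reverse setting is usual for this kit. Which setting the counts reflect was not tested. Here gene positions and biotypes came from GENCODE 44. Counts of all 12 libraries were filtered by expression, normalised by TMM and fitted with 4 group means by edgeR 4.0.16 (quasi-likelihood test, prior count 0.125, Benjamini-Hochberg adjustment over all genes tested, threshold 0.05, R 4.3.3). The fit was tested on simulated data, where it recovered 191 of 200 genes changed 2-fold with 12 false calls among 18550 genes, and 187 with 13 without resistant replicate 2. The simulated spread is not that of the real replicate 2. Only the 200 genes were changed, as many up as down, whereas 68.5% of genes were called in the real data. The simulation therefore does not measure false calls or the effect of scaling in these data.

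The comparison and the gene lists were chosen with earlier results of these data known, so the lists are described by counts and medians and were given no test. Genes named are the 12 protein-coding genes with the largest rise and the 12 with the largest fall (averaging 5 CPM or more where higher, groups not overlapping, called also without replicate 2), in each list up to 4 called members with the largest change and the member of highest level, all sunitinib targets and immunoblotted proteins, and the 5 genes deviating most in each direction in replicate 2 (averaging 10 CPM or more in resistant cells). The floor is 3 counts per library. No 2 libraries of a group agreed within sampling noise. Alternatives were DESeq2 1.42.0 (size factors and Wald test), limma 3.58.1 with library quality weights, other filters, a prior count of 2, the 6 libraries alone, a replicate block, removal of the GC and length trend, each library left out in turn, and the study's own test of raw counts. Some genes that the rule names are not reported here.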

Additional observations from a re-analysis of the deposited data

How the results depend on the processing

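Leaving out each of the 6 libraries in turn gave 6387 to 7611 genes higher, 6130 to 7269 lower, 3155 to 3437 beyond 2-fold higher and 1071 to 1301 beyond 2-fold lower. The study's own test of raw counts, with no adjustment, gave 2797 genes lower. Requiring at least 10 counts in each of the 6 libraries left 1693 genes beyond 2-fold higher and 678 beyond 2-fold lower, with fewer genes tested. The other alternatives stayed within 1.5 times of each count, and the 6 libraries alone gave 6301 genes higher and 5713 lower. Same-numbered libraries did not deviate together (correlations -0.255, -0.146 and 0.025). With 3 libraries per group and resistant replicate 2 standing apart, these correlations cannot exclude that the replicate numbers pair the samples. A replicate block gave 6862 higher, 6635 lower, 3199 beyond 2-fold higher and 1150 beyond 2-fold lower. The block turned the median of matrix proteases and inhibitors to -0.0252.

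Of the 249 named genes, 242 kept their direction and call without resistant replicate 2, 1 lost its call, 4 gained one and 2 changed sign. The leading genes were named only if called without replicate 2, and many others for large called changes. These counts therefore follow in part from the choice of genes. For the values that changed sign the cause was not tested. With the GC and length trend removed, BCL2L1 was at -0.12, CDKN1A at -0.0251, HSPB1 at -0.36, PIF1 at -0.21, PLXNB2 at -0.00304 and SCG5 at 0.0257, and the list medians were -0.22 for the BCL2 family, -0.0208 for angiogenic ligands, -0.18 for ccRCC markers and -0.0863 for inflammatory genes. Scaled by library size alone, AKT1 was at 0.10 and SCG5 at 0.0823, and the medians were 0.0507 for NRF2 targets, 0.0543 for cyclins D and CDK inhibitors, 0.0395 for kidney tubule genes, 0.11 for myeloid markers, 0.0257 for p53 targets and 0.10 for immunoblotted proteins. With at least 10 counts per library, AKT1 and the immunoblotted proteins were at 0.0102, and no myeloid marker was left. With library quality weights, CDKN1A was at -0.0588 and the median of iron genes at -0.0373. With the 6 libraries alone, the median of myeloid markers was 0.00748. Leaving out single libraries gave -0.0510 to 0.00123 for AKT1 and for the immunoblotted proteins, -0.0922 to 0.29 for CDKN1A, -0.0368 to 0.0734 for HSPB1, -0.0654 to 0.54 for PIF1, -0.89 to 0.28 for SCG5, and medians of -0.00694 to 0.19 for iron genes, -0.16 to 0.00868 for kidney tubule genes and -0.13 to 0.11 for myeloid markers.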
